A study of Mus musculus with 15 samples.

Results

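Genes that mark the neurons and glia of the gut wall were followed across 15 distal colon RNA-seq libraries from mice. The members were 9 genes chosen by name, Elavl4, Uchl1, Tubb3, Snap25, Ret, Nos1, Vip, S100b and Sox10, and were found by exact symbol in the deposited count tables. Of these, 6 (Uchl1, Tubb3, Snap25, Ret, Nos1 and Vip) had a row in all 3 tables, among 12897 genes with a row in any table. Elavl4, S100b and Sox10 had no row and have no value here. The tables hold only genes with at least 5 CPM (counts scaled to a library's total) in 3 or more libraries, and the level of these 3 genes is not analysed here. The measured members are thus all neuronal, and enteric glia are described below only through a wider list of glial genes, 19 of 24 of which had a row.

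The enteric nervous system lies in the wall of the gut as interconnected ganglia between and beneath the muscle layers, and it drives motility, secretion and local blood flow. Its neurons and glia arise from neural crest cells that enter the gut in the embryo and depend on the receptor tyrosine kinase Ret and its ligand GDNF. Inhibitory motor neurons relax the smooth muscle with nitric oxide, made by Nos1, and with the peptide Vip, which also stimulates epithelial secretion. Enteric neurons are a small share of the cells of the colon, so their transcripts are diluted in RNA from whole tissue.

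All mice were of strain C57BL/6 (B6) per the labels, the substrain C57BL/6J per the study's methods, with 3 mice in each of 5 groups. Treated mice received AOM at 8 to 10 weeks of age, and the age of the untreated mice is not given in the sources used here. Control sets 1 and 2 were separate sets of untreated wildtype mice. The other groups were wildtype mice at D26 after 1 AOM/DSS treatment, untreated Irf1-/- mice and Irf1-/- mice at D26 of the same treatment. AOM, a carcinogen, was given at 7 mg/kg on D1, and DSS, which injures the colonic epithelium, at 2% in the water that the mice drank from D8 to D11. Irf1, a transcription factor of interferon responses, was deleted in the germline, so every cell of the mutant lacks it, neurons included. Reads were still counted on Irf1 in the mutants (94.7 ± 19.8 CPM untreated and 111 ± 11.7 CPM treated, SD, n = 3), but each of their libraries was below each of the B6 libraries, where the group means were 133 to 208 CPM. In RNA from whole tissue, fewer neurons and less RNA per neuron cannot be told apart.

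Each library held 22266607 to 22869853 counted reads, and 144 to 863 of them fell on each measured member. At the lowest count of each member, counting alone gives a coefficient of variation of 4.55 to 8.33%. No library was a duplicate of another, since within groups the counts of 15 pairs varied 8.65 to 42.7 times more than sampling allows (reduced chi-square). Counts per gene followed the GC content of the genes in another way in the treated B6 libraries than elsewhere. In treated B6 mice the slope was 0.20 ± 0.075 (SD, n = 3), in log2 units per 10% GC, and it was between -0.12 and 0.03 in the other 12 libraries. GC content was taken from the longest transcript of each member. It was lowest, of the 6 measured members, for Snap25 and Vip (38.7% each, against 51.4 to 57.9% for the other 4). Values corrected for GC content are given beside their results. For both genes the longest transcript is not the principal one (4880 against 2116 bases for Snap25, 2532 against 1530 for Vip). The GC content of their principal transcripts was not computed. How far their corrected values depend on the choice of transcript was not tested.

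The sequence just upstream of 4 members is shown because 3 of them (Uchl1, Tubb3 and Nos1) had the most similar profiles over the libraries, and because Vip had the highest level per length. Each window is the 250 bases before the RefSeq start of the gene on the + strand of GRCm38.p6, at chr10:5638968-5639217 for Vip, chr5:66675871-66676120 for Uchl1, chr8:123411303-123411552 for Tubb3 and chr5:117866589-117866838 for Nos1. Windows were found for 6 of the 9 members, and Snap25, Ret and Sox10 had none. Capitals mark the core of the cAMP response element (TGACGT) and the TATA box (TATAAA), searched on both strands.
Vip: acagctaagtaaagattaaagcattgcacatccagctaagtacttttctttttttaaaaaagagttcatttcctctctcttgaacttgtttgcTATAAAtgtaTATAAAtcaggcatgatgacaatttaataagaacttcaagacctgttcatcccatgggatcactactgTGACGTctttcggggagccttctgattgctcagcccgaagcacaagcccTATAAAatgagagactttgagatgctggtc
Uchl1: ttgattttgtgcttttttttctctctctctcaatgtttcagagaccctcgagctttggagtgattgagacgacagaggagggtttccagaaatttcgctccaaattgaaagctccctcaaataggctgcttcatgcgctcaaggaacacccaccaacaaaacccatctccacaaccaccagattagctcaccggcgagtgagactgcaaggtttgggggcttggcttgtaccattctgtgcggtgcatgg
Tubb3: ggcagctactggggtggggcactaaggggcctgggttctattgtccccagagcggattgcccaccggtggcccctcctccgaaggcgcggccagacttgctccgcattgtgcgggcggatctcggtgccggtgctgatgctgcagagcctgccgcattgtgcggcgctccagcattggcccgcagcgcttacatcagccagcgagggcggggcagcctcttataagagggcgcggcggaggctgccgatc
Nos1: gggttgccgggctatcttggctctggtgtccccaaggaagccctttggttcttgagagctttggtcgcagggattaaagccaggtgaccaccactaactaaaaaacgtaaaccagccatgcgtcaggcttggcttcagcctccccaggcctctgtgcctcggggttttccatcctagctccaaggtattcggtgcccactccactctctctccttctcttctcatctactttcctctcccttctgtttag

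The Vip window held the TGACGT core 79 bases before the start and TATAAA at 157, 147 and 30 bases before it, and the other 3 windows held neither. Of 32851 RefSeq windows of this length, 6.47% held TGACGT and 12.4% held TATAAA. The interferon response element GAAANNGAAA, a sequence bound by Irf family factors, was in 2.98% of all windows and in none of these 4. The shorter AANNGAAA, which the longer element contains, was in 21.3% of windows and occurred once each in those of Vip and Uchl1. The GC content of the windows was 38.4% for Vip, 48.8% for Uchl1, 54.0% for Nos1 and 68.0% for Tubb3, against a median of 52.4% over all windows.

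All 6 members were low but measured in every library. Exons of Uchl1 and Nos1 overlap antisense genes (Uchl1os by 232 bases and Gm26995 by 169 bases in GENCODE M21), and whether strand was used in counting is not given in the sources used here, so part of their reads could be of the antisense genes. Among the pan-neuronal genes, Uchl1, a ubiquitin hydrolase abundant in neurons, was at 14.3, 19.3 and 10.9 CPM in control set 1 and at 8.92, 7.82 and 12.3 CPM in control set 2. It was at 11.4, 12.1 and 12.6 CPM in treated B6 mice, 9.20, 9.03 and 11.1 CPM in untreated Irf1-/- mice and 8.77, 13.8 and 12.4 CPM in treated Irf1-/- mice. The groups overlapped, with the mean of control set 1 highest (14.8 ± 4.24 CPM, SD, n = 3) and that of control set 2 lowest (9.67 ± 2.32 CPM).

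Tubb3, the neuron-specific beta-tubulin, was at 7.40, 11.8 and 9.36 CPM in control set 1, and the other 4 groups all lay between 6.40 and 8.90 CPM. Its group means were 9.51 ± 2.19 CPM in control set 1, 6.90 ± 0.294 CPM in control set 2, 7.85 ± 0.930 CPM in treated B6, 7.76 ± 1.26 CPM in untreated Irf1-/- and 7.83 ± 0.968 CPM in treated Irf1-/- mice. The last 3 means differed by less than the spread between mice.

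Snap25, a SNARE protein that fuses synaptic vesicles with the membrane, was the member whose groups stood most apart. It was at 14.97, 15.3 and 13.8 CPM in control set 1 and at 11.9, 10.8 and 10.3 CPM in control set 2. Treated B6 mice had 9.53, 10.2 and 9.18 CPM, all below every library of both control sets. The gap to control set 2 was narrow, at 10.24 CPM (230 reads) against 10.31 CPM (231 reads), and within the error of counting. Untreated Irf1-/- mice had 13.95, 13.9 and 11.4 CPM, and treated Irf1-/- mice had 11.2, 15.9 and 14.3 CPM. Every Irf1-/- library, treated or not, was thus above every treated B6 library.

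Ret, the receptor of the GDNF family, was the steadiest member, with group means between 12.1 ± 1.92 CPM (control set 2) and 14.2 ± 2.75 CPM (control set 1), and its groups all overlapped. Its values were 11.99, 15.1 and 14.3 CPM in treated B6, 11.02, 13.4 and 13.1 CPM in untreated Irf1-/- and 12.5, 11.3 and 14.4 CPM in treated Irf1-/- mice.

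Nos1, the neuronal nitric oxide synthase, was at 15.6, 23.96 and 15.2 CPM in control set 1 and at 13.1, 14.4 and 12.01 CPM in control set 2. It was at 16.7, 14.3 and 16.8 CPM in treated B6, 13.7, 13.2 and 12.8 CPM in untreated Irf1-/- and 12.2, 16.3 and 16.3 CPM in treated Irf1-/- mice. The value of 23.96 CPM came from replicate 2 of control set 1, which was also the highest of the 15 libraries for Uchl1, Tubb3 and Ret.

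Vip, the vasoactive intestinal peptide, was the most abundant member, at 31.3, 35.9 and 33.0 CPM in control set 1 and at 24.0, 21.5 and 33.4 CPM in control set 2. It was at 33.8, 38.4 and 26.5 CPM in treated B6, 22.2, 27.9 and 28.1 CPM in untreated Irf1-/- and 31.4, 28.3 and 27.6 CPM in treated Irf1-/- mice. The plot of member levels by library shows these values.

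**Figure D1:**
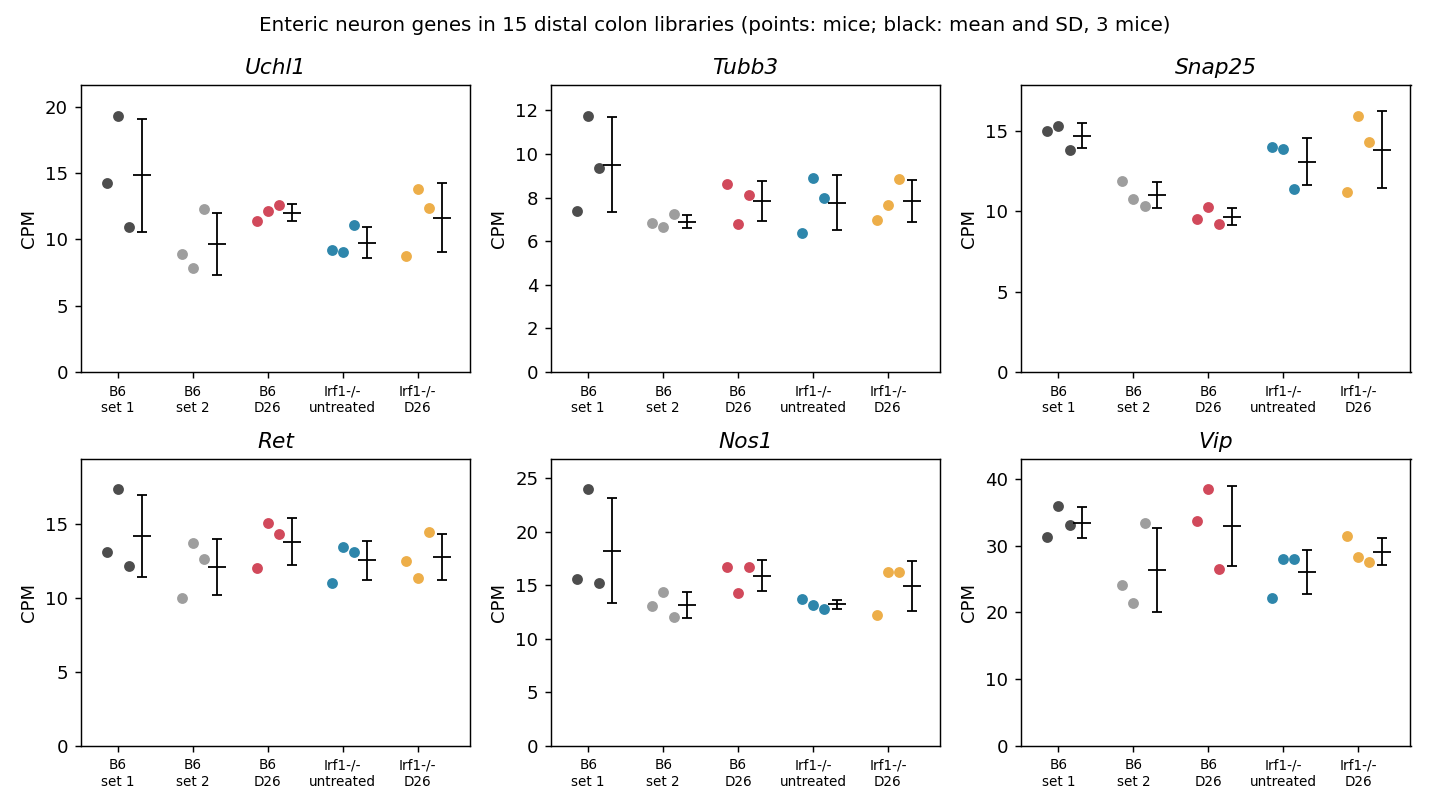
Library-normalised level (CPM) of the 6 measured members in each of 15 mice, by group, with the mean and SD of 3 mice in black. Control set 1 has the highest mean for all 6 genes, and the 3 treated B6 mice lie lowest for Snap25 (9.18 to 10.2 CPM).

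Control set 1 had the highest group mean for all 6 members, and control set 2 the lowest for 4 of them (Uchl1, Tubb3, Ret and Nos1). The lowest mean was that of treated B6 mice for Snap25 and of untreated Irf1-/- mice for Vip. When the 5 groups were ordered by mean for each member, 23 of the 24 neighbouring pairs overlapped. Only control set 2 and treated B6 mice did not, for Snap25, and there the nearest libraries were at 10.31 and 10.24 CPM. Per kilobase of the principal transcript the order of the members was Vip (19.3 CPM per kb), Uchl1 (9.85), Snap25 (5.88), Tubb3 (4.27), Ret (2.39) and Nos1 (1.49), as means over the 15 libraries. Snap25 was above Tubb3 in 13 of 15 libraries, and every other neighbouring pair kept this order in 15 of 15.

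Whether loss of Irf1 changed these genes in the unchallenged colon was asked by comparing untreated Irf1-/- mice with control set 2. No member passed the test. The log2 FC was 0.01 ± 0.18 (SE) for Uchl1, 0.17 ± 0.15 for Tubb3, 0.25 ± 0.12 for Snap25, 0.05 ± 0.14 for Ret, 0.01 ± 0.11 for Nos1 and -0.01 ± 0.16 for Vip, and the 95% intervals together ran from -0.38 to 0.53. In the quasi-likelihood test of edgeR, with p-values adjusted by Benjamini-Hochberg, the adjusted p was 0.541 to 0.995. At an FC of at least 1.5 and an adjusted p under 0.01, 0.405% of the 12588 genes tested were called. None of the 6 members had an unadjusted p under 0.05 and none had groups that did not overlap, where 10.4% and 15.4% of all genes did.

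The response to AOM/DSS was taken first in B6 mice, with control set 1 as in the deposited table. No member was called, where 0.0475% of 12643 genes were. Snap25 came nearest, with a log2 FC of -0.60 ± 0.12 (SE, 95% interval -0.87 to -0.33, adjusted p = 0.0254 in edgeR's quasi-likelihood test), a level 0.661 times that of control set 1. It was lower in 3 of 3 treated libraries than in any of control set 1. It was the only member with an unadjusted p under 0.05, and the only one with groups that did not overlap, where 29.5% and 34.5% of all genes did. The other members were at log2 FC of -0.29 ± 0.19 (Uchl1), -0.27 ± 0.19 (Tubb3), -0.19 ± 0.18 (Nos1), -0.03 ± 0.16 (Ret) and -0.02 ± 0.13 (Vip), with adjusted p of 0.338 to 0.948.

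The value for Snap25 depended on the control mice and on the GC content. Against control set 2 in place of set 1 its log2 FC was -0.17 (adjusted p = 0.385), and against both sets together -0.40 (adjusted p = 0.0718), both by edgeR's quasi-likelihood test. With the GC correction it was -0.26 (adjusted p = 0.288, same test). It passed both thresholds with the Wald test of DESeq2 (-0.60, adjusted p = 0.00261), with edgeR's exact test (-0.60, adjusted p = 0.00150) and with all 15 libraries in 1 edgeR fit (-0.60, adjusted p = 0.00760). Against control set 2 the other 5 members all had a positive log2 FC, 0.20 to 0.34, and none of the 6 had an unadjusted p under 0.05.

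The GC correction also raised the value for Vip. With it the treated B6 mean was 39.6 ± 4.47 CPM, against 32.1 ± 3.19 CPM in control set 1, and the log2 FC was 0.31 (adjusted p = 0.173) where it had been -0.02. The levels of Snap25 and Vip against the GC slope of each library are plotted.

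**Figure D2:**
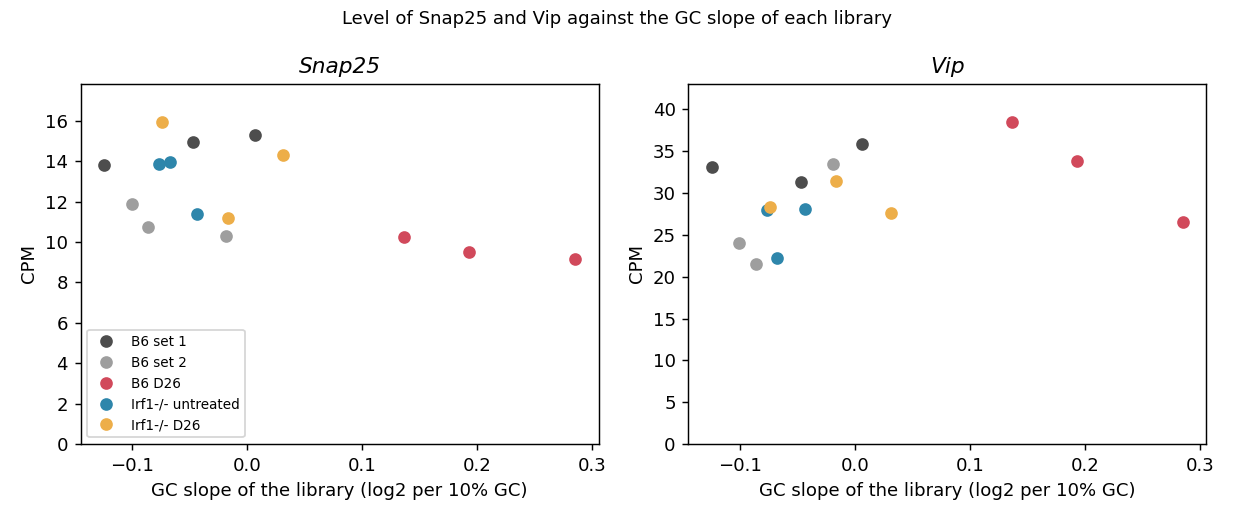
Level (CPM) of Snap25 and Vip in each of 15 libraries against the slope of the library's counts on GC content (log2 units per 10% GC), coloured by group. The 3 treated B6 libraries stand alone at slopes of 0.14 to 0.29, all others being at -0.12 to 0.03. They hold the 3 lowest Snap25 values, the highest of them at 10.24 CPM against 10.31 CPM in the next library.

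In Irf1-/- mice the same treatment left no member called (0.252% of 12692 genes were), with none of 6 at an unadjusted p under 0.05 (18.6% of all genes) and none with groups that did not overlap (25.1%). All 6 values were positive, where the median of all genes was 0.01. The log2 FC was 0.26 ± 0.18 (SE) for Uchl1, 0.18 for Nos1, 0.16 for Vip, 0.08 ± 0.15 for Snap25, 0.03 for Ret and 0.02 for Tubb3, with 95% intervals between -0.36 and 0.66 and an adjusted p of 0.492 to 0.974 in edgeR's quasi-likelihood test.

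Whether the responses of the genotypes differed was tested by the interaction term of a fit over 12 libraries. No member was called, where 0.016% of 12483 genes were. For Snap25 the difference of log2 FC, Irf1-/- minus B6, was 0.68 ± 0.19 (SE, 95% interval 0.27 to 1.10, adjusted p = 0.118 in edgeR's quasi-likelihood test), and it alone had an unadjusted p under 0.05 (0.00361), where 16.9% of all genes did. It was 0.40 (adjusted p = 0.468) after GC correction and 0.27 (adjusted p = 0.559) with control set 2. The other 5 differences were 0.07 to 0.56, and all of them turned negative with control set 2 (-0.17 to -0.06).

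Averaged over both genotypes, the response gave no called member, against 1.3% of all genes. Snap25 was at -0.26 ± 0.097 (adjusted p = 0.0743 in edgeR's quasi-likelihood test) and alone had an unadjusted p under 0.05 (34.2% of all genes), and the other 5 were between -0.13 and 0.07.

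Treated Irf1-/- mice were then compared directly with treated B6 mice, in the same fit of 12 libraries. Again no member was called (1.69% of 12483 genes were). Snap25 was 1.43 times as high in the mutants, with a log2 FC of 0.52 ± 0.14 (SE, 95% interval 0.22 to 0.81, adjusted p = 0.0301 in edgeR's quasi-likelihood test). It was the only member with an unadjusted p under 0.05 or with groups that did not overlap, where 29.4% and 27.5% of all genes were. The other members were between -0.18 and 0.00, with an adjusted p of at least 0.390. After GC correction Snap25 was at 0.19 (adjusted p = 0.507), and Vip, at -0.18 before it, was at -0.50 (adjusted p = 0.0294), from 28.2 ± 1.64 CPM in the mutants and 39.6 ± 4.47 CPM in B6 mice. Which of these genes of low GC content differed between the treated genotypes thus changed with the correction. Changes of the members in 6 of the comparisons, and the effect of the control set and the correction, are plotted.

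**Figure D3:**
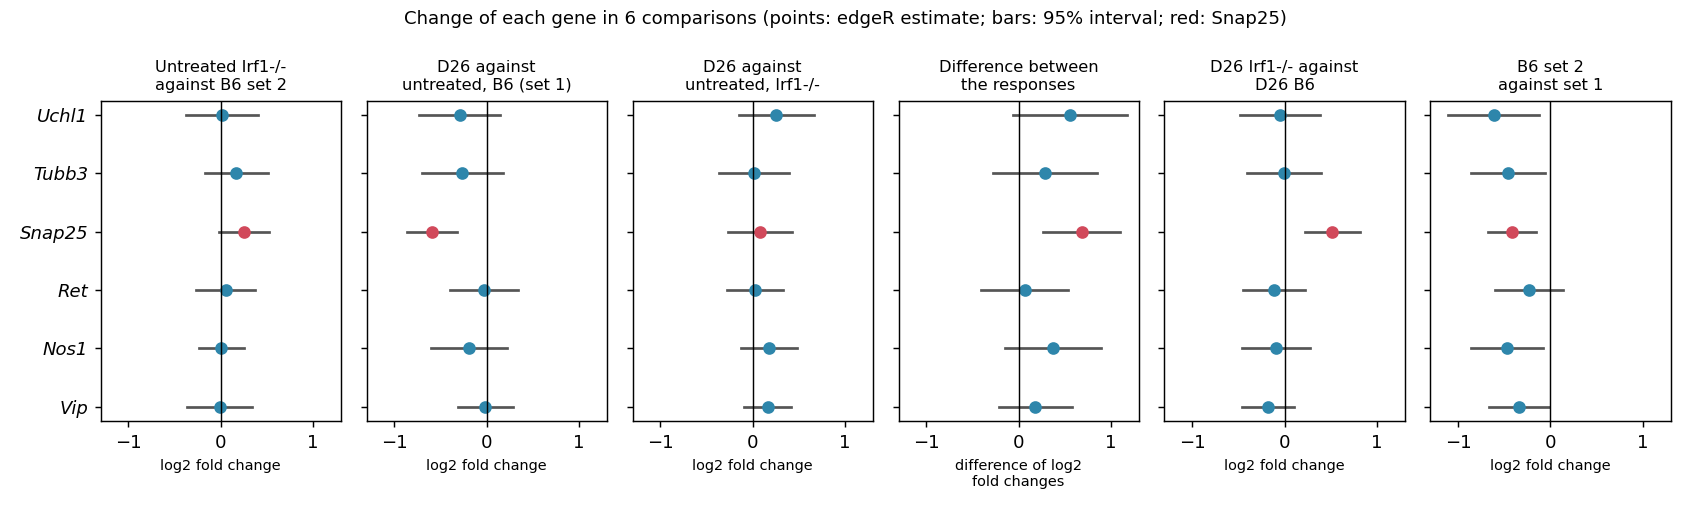
Log2 FC of the 6 members in 6 comparisons, as edgeR's estimate (points) with its 95% interval (bars), Snap25 in red. Snap25 is at -0.60 in B6 and 0.08 in Irf1-/- mice, and all 6 genes lie left of 0 where control set 2 is set against set 1.

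**Figure D4:**
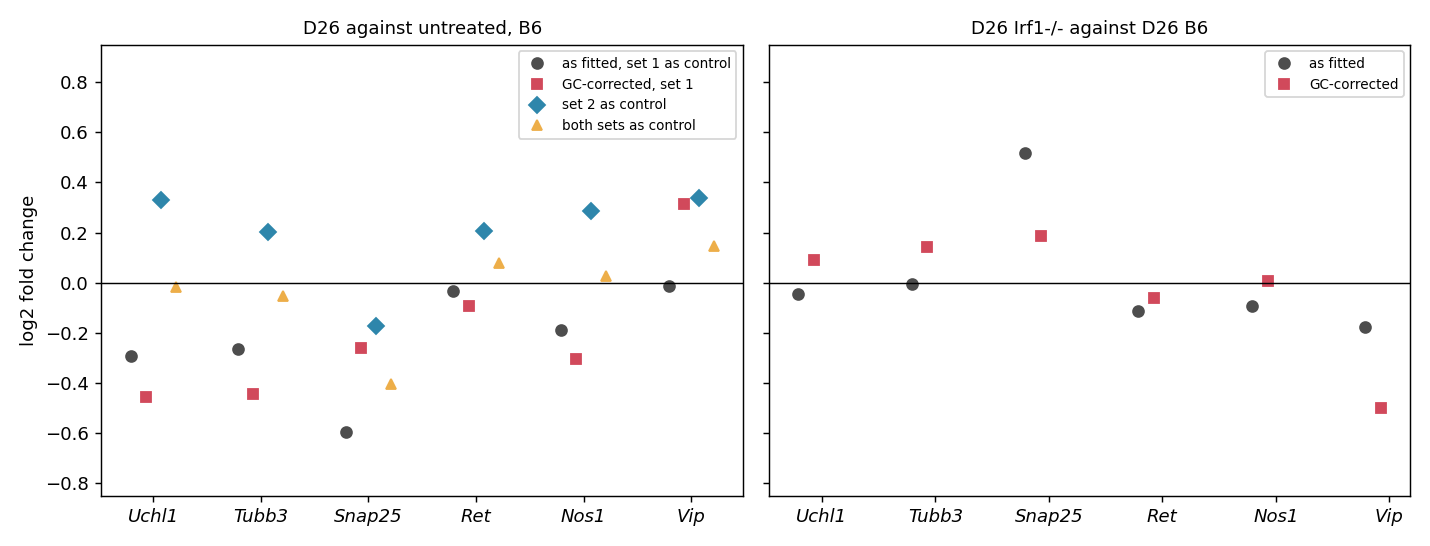
Log2 FC of the 6 members in treated against untreated B6 mice (left) and in treated Irf1-/- against treated B6 mice (right), as fitted, after GC correction and, on the left, with other control mice. Snap25 moves from -0.60 to -0.17 with control set 2, and Vip from -0.02 to 0.31 with GC correction.

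The control sets themselves differed by amounts like these. Against set 1, control set 2 had a log2 FC of -0.62 ± 0.22 (SE) for Uchl1, -0.47 ± 0.18 for Nos1, -0.46 ± 0.18 for Tubb3, -0.42 ± 0.12 for Snap25, -0.35 ± 0.15 for Vip and -0.23 ± 0.17 for Ret. No member was called (0.0644% of 12417 genes were), with an adjusted p of 0.116 to 0.519 in edgeR's quasi-likelihood test. An unadjusted p under 0.05 was found for 5 of 6 members, all lower in set 2, against 17.2% of all genes, and for 3 of 6 (Nos1, Tubb3 and Snap25) the sets did not overlap, against 21.4%. Without replicate 2 of control set 1, 1 of 6 members had an unadjusted p under 0.05, and their median log2 FC was -0.29 where it had been -0.44. The smooth muscle markers that surround these neurons were also lower in set 2, with a median log2 FC of -0.10 over 12 genes, 10 of them negative, and a summed level of 9332 to 10109 CPM against 9984 to 10475 CPM. Skeletal muscle markers, which are foreign to the colon wall, were higher in set 2, all 10 of 10, with a summed level of 298 to 418 CPM against 194 to 236 CPM, and each had reads in every library. The part of either in the members' difference was not tested.

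Skeletal muscle markers also moved in the other comparisons. Their summed level was 289 to 553 CPM in treated B6, 244 to 342 CPM in untreated Irf1-/- and 119 to 230 CPM in treated Irf1-/- mice. All 10 had a positive log2 FC with treatment in B6 mice (median 0.65) and a negative one in Irf1-/- mice (median -0.77). Smooth muscle markers were at a median of 0.01 and 0.02 in these comparisons. Leukocyte markers, 6 of 7 measured, were at a summed level of 90.3 to 229 CPM in the other groups and 197 to 245 CPM in treated Irf1-/- mice. The part of these cells in the members' values was not tested.

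The wider gene lists of the enteric nervous system were described by their counts and medians, with all genes at a median between -0.01 and 0.02 in each comparison. In neuronal cytoskeleton and adhesion genes, 14 to 16 of 26 were measured, led by Map1b (94.1 CPM), a microtubule-associated protein, L1cam (84.0 CPM) and Ncam1 (44.4 CPM), which are axonal adhesion molecules. The median log2 FC with treatment was -0.14 in B6 mice (4 of 16 positive) and 0.15 in Irf1-/- mice (11 of 14 positive), and no gene was called in either. The value in B6 mice is taken from control set 1. Control set 2 against set 1 had a larger median shift in this list, -0.29, with 3 of 14 positive. Between treated genotypes 12 of 14 were positive, with a median of 0.16. The nearest to a call there was Ncam1, at 39.7 CPM in treated B6 and 50.7 CPM in treated Irf1-/- mice (log2 FC 0.35 ± 0.074, adjusted p = 0.0106 in edgeR's quasi-likelihood test). Rtn1, a reticulon of neuronal endoplasmic reticulum, was the only gene of this list that was called. It was downregulated in the average response over both genotypes, with a log2 FC of -0.81 ± 0.17 (adjusted p = 0.00922 in edgeR's quasi-likelihood test). After GC correction it was at -0.89 (adjusted p = 0.00846, same test). That response is taken from control set 1, where Rtn1 was at 9.09 ± 0.639 CPM. In control set 2 it was at 6.95, 6.84 and 4.42 CPM, which overlapped the 2.90, 3.92 and 6.65 CPM (66 to 152 reads) of treated B6 mice. Untreated and treated Irf1-/- mice had 8.09 ± 0.840 and 5.36 ± 1.09 CPM.

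The synaptic vesicle and release genes, 12 or 13 of 20 measured, held the partners of Snap25. Their most abundant genes were Nsf (62.5 CPM), the ATPase that takes SNARE complexes apart, Syt11 (53.2 CPM), a synaptotagmin, and Cplx2 (42.2 CPM), a complexin that binds assembled SNAREs. None was called in any comparison. With treatment their median was -0.17 in B6 mice (4 of 13 positive) and 0.17 in Irf1-/- mice (10 of 13 positive), and the difference between the responses was positive for 13 of 13 genes (median 0.30), with 4 of 13 at an unadjusted p under 0.05 (16.9% of all genes). Cplx2 was at 47.2 CPM in control set 1, 37.9 CPM in treated B6, 40.9 CPM in untreated Irf1-/- and 43.7 CPM in treated Irf1-/- mice, a difference of 0.41 ± 0.13 (adjusted p = 0.138 in edgeR's quasi-likelihood test). Between the control sets the same list was at a median of -0.22, with 1 of 12 positive.

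Of the transmitter and peptide genes, 4 to 6 of 19 were measured, and the acetylcholine pathway was represented by Ache alone (9.97 CPM), the esterase that breaks acetylcholine down. Ddc (91.9 CPM) and Slc18a2 (9.93 CPM), which make and package monoamines, are also expressed by enteroendocrine and immune cells. Slc18a2 was at 11.1 ± 0.786 CPM in control set 1 and 6.57 ± 0.918 CPM in treated B6 mice (log2 FC -0.75, adjusted p = 0.0274 in edgeR's quasi-likelihood test, and -0.70 with an adjusted p of 0.0655 after GC correction), but at 10.8 ± 0.526 and 9.99 ± 1.08 CPM in untreated and treated Irf1-/- mice. Calcb, a calcitonin gene-related peptide of sensory neurons, was called in the average response, but it passed the filter of 5 CPM only through the treated libraries, so that a higher level there was fixed by the filter and its values are a description. It was at 1.98, 2.42 and 1.11 CPM in control set 1 and at 10.1, 25.1 and 7.96 CPM in treated B6 mice. In Irf1-/- mice it was at 3.02, 1.56 and 2.38 CPM untreated and at 9.48, 11.03 and 22.1 CPM treated, so that no treated library overlapped an untreated one of its genotype. It was absent from the table of control set 2 and has no value there.

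On the receiving side, 12 or 13 of 14 receptor and target genes were measured, and none was called in any comparison. The most abundant were Pde5a (286 CPM), which degrades the cyclic GMP that nitric oxide raises in smooth muscle, Vipr1 (283 CPM), a receptor of Vip, and Htr4 (56.4 CPM), a serotonin receptor. The median log2 FC with treatment was -0.16 in B6 mice (2 of 12 positive) and 0.02 in Irf1-/- mice (7 of 12 positive). Control set 2 against set 1 was at a median of -0.10 in this list, with 3 of 12 positive. Vipr1 was between 251 and 308 CPM in the group means, highest in control set 1, as Vip was.

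Of the genes of Ret signalling and neural crest development, 9 or 10 of 21 were measured, and again none was called. Ece1 (174 CPM), which activates endothelins, Zeb2 (74.2 CPM), a transcription factor of neural crest cells, and Bmp2 (51.0 CPM), a growth factor, were the most abundant. Gfra1, the co-receptor through which GDNF binds Ret, was at a log2 FC of -0.20 ± 0.15 with treatment in B6 and 0.11 ± 0.30 in Irf1-/- mice. Zeb2 was at 70.5 CPM in treated B6 and 88.5 CPM in treated Irf1-/- mice (0.33 ± 0.085, adjusted p = 0.0267 in edgeR's quasi-likelihood test). After GC correction Zeb2 was at 0.07 (adjusted p = 0.676) in this comparison.

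**Figure D5:**
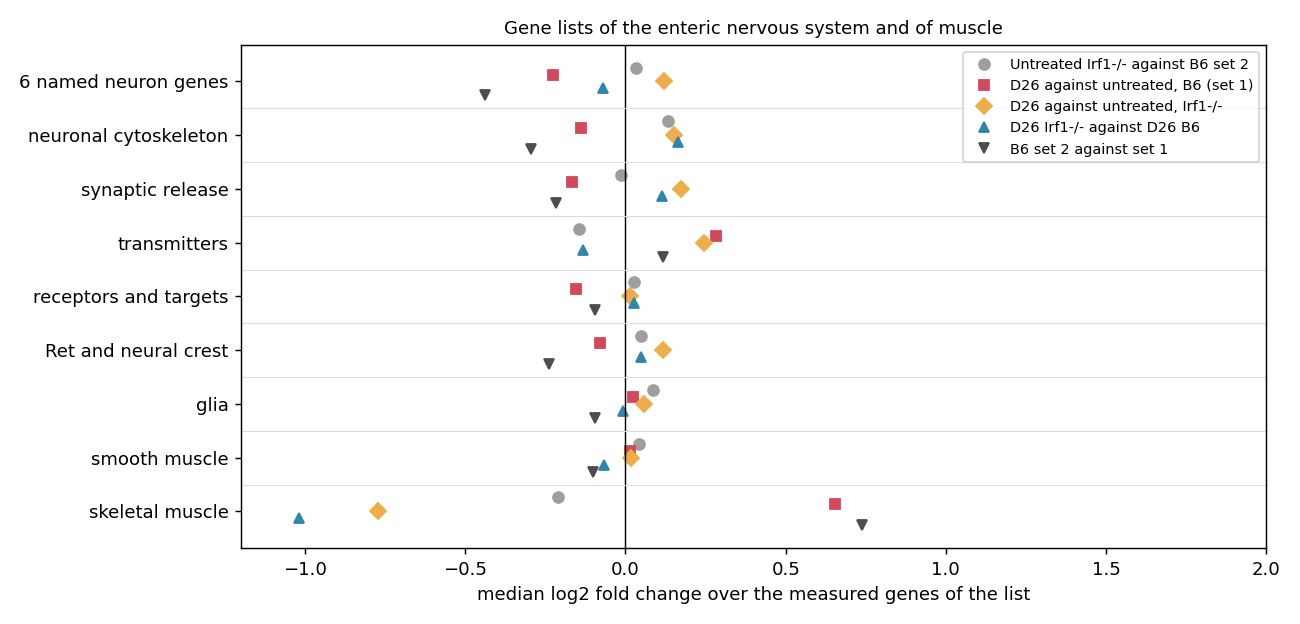
Median log2 FC of the measured genes of each list (rows) in 5 comparisons (symbols). The skeletal muscle list spans -1.02 to 0.74, and the neuronal lists lie below 0 in treated B6 mice and in control set 2 against set 1, except for transmitters. In treated B6 mice the transmitter median is over 6 genes. They include Calcb, which passed the filter of 5 CPM only through treated libraries, so that median is in part set by the filter.

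For the glia, with S100b and Sox10 without a value, 18 or 19 of 24 listed genes were tested, led by Erbb3 (362 CPM), the receptor of neuregulins, Pmp22 (240 CPM) and Mbp (142 CPM), proteins of myelin that other cells of the colon express as well. The summed level of the 18 genes measured throughout was 1060 to 1260 CPM over all libraries, and the groups overlapped. Most of that sum came from Erbb3, Pmp22 and Mbp, so it says little of the other listed genes or of the number of glia. With treatment in B6 mice the list's median was 0.02, with 10 of 19 genes positive. In edgeR's quasi-likelihood test, 3 genes were higher and 6 lower there at an unadjusted p under 0.05, 47.4% of the list against 29.5% of all genes. The median was 0.06 with treatment in Irf1-/- mice (12 of 18 positive) and -0.01 between treated genotypes (8 of 18 positive). Values are given here for Ngfr, Gpm6b and Scn7a, named after their values were seen, none of which was called in any comparison. All of them were lower with treatment in B6 mice, so they do not stand for the whole list.

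Ngfr, the low-affinity neurotrophin receptor, was at 23.2 ± 2.27 CPM in control set 1 and 16.1 ± 0.580 CPM in treated B6 mice, and at 23.4 ± 1.73 and 18.2 ± 3.01 CPM in untreated and treated Irf1-/- mice. Its log2 FC with treatment in B6 mice was -0.52 ± 0.11 (adjusted p = 0.0278 in edgeR's quasi-likelihood test). Its average response was -0.45 (adjusted p = 0.00578), below the FC of 1.5. Gpm6b, a membrane glycoprotein, was at -0.47 ± 0.12 with treatment in B6 mice (adjusted p = 0.0454) and at 0.50 ± 0.10 in treated Irf1-/- against treated B6 mice (adjusted p = 0.00844), also below that FC. Scn7a, a sodium channel, was at -0.34 ± 0.088 (adjusted p = 0.0499) and 0.50 ± 0.14 (adjusted p = 0.0359) in the same comparisons. Both genes are of low GC content (40.0% for Gpm6b and 40.2% for Scn7a). After GC correction Gpm6b was at -0.18 (adjusted p = 0.436) and 0.21 (adjusted p = 0.241), and Scn7a at -0.05 (adjusted p = 0.792) and 0.22 (adjusted p = 0.414), in the same test, while Ngfr was at -0.71 (adjusted p = 0.0345) with treatment in B6 mice. Control set 2 was at 20.8 ± 2.15 CPM for Ngfr, 17.3 ± 2.02 CPM for Gpm6b and 54.5 ± 3.98 CPM for Scn7a. Its libraries overlapped those of treated B6 mice for Scn7a (51.6 to 59.0 against 44.3 to 53.1 CPM), but not for Ngfr and Gpm6b.

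Across the 15 libraries the members tended to vary together, described by Pearson's r of log2(CPM + 1) with no test, since libraries of 1 group share a treatment and all libraries share their make-up of cells. Over the 15 pairs of members r was -0.05 to 0.75 (median 0.45, 13 positive), and -0.29 to 0.62 (median 0.33, 12 positive) for deviations from the group means. The highest were Uchl1 with Nos1 (0.75, and 0.54 within groups), Tubb3 with Nos1 (0.73 and 0.62) and Uchl1 with Tubb3 (0.62 and 0.41). The lowest over the 15 libraries were Snap25 with Vip (-0.05, and -0.21 within groups) and with Ret (-0.01 and -0.11). Snap25 was at 0.33 with Uchl1, 0.34 with Tubb3 and 0.33 with Nos1 (0.33, 0.05 and 0.48 within groups). Within groups the lowest pair was Nos1 with Vip (-0.29). Uchl1 varied with the summed smooth muscle markers at r = 0.64 (0.59 within groups), and Snap25 at -0.04. Among the listed genes, those most like the mean profile of the 6 members were Kif1a (r = 0.85) and Kif5a (0.81), kinesins of axonal transport, Scg3 (0.80) and Scg2 (0.77), granins of secretory granules, Hand2 (0.75), a transcription factor of enteric neurons, and Syt1 (0.74), the calcium sensor of vesicle release.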

How the data were processed

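Counts of reads per gene, without normalization, were deposited by the authors in 3 tables covering 15 libraries (paired 50 bp reads, stranded kit, rRNA-depleted RNA of distal colon). The submitters' processing notes name TopHat2 2.0.9, Bowtie 1.0.0, featureCounts, edgeR and the mouse build mm9. The authors kept genes with at least 5 CPM in 3 or more libraries of a table. The 36 columns of the authors' CPM and their columns of fold changes, p-values and adjusted p-values were not used. The untreated Irf1-/- libraries stand in 2 tables with identical counts (37488 values) and were used once per fit.

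Counts were scaled by TMM (factors 0.981 to 1.01) and tested with the quasi-likelihood model of edgeR 4.0.16 in R 4.3.3, with Benjamini-Hochberg adjustment over all genes of the table, or of both tables where a fit spanned 2 (12370 to 12692 genes, depending on the fit). A gene was called at an FC of at least 1.5 and an adjusted p under 0.01, the thresholds of the study. On simulated counts the test was checked for recovery of known changes. Genes were named by rule: all members, the 3 most abundant genes of each list and any called gene, except for 1 gene that is not reported here, and the genes outside the lists most like the members in profile. Gfra1, Ngfr, Gpm6b, Scn7a and the listed genes most like the members were named after their values were seen. The members and lists were chosen with earlier results of these data known.

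Alternatives were RLE size factors, DESeq2 1.42.0, edgeR's exact test, voom of limma 3.58.1, a filter of 10 CPM, a replicate block, a lowess correction on GC content (span 0.3, GENCODE M21, 99.2% of genes matched), leaving out each mouse, a limit of 0.05 on the adjusted p, all libraries in 1 fit, and other control sets. Sequences came from RefSeq, on a later build than that of the counts. Python 3.11.15, pandas 2.3.3 and matplotlib 3.10.9 were used.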

Additional observations from a re-analysis of the deposited data

How the results depend on the processing

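No member was called by edgeR's quasi-likelihood test in any of the 7 comparisons, and under the alternatives the number of members called changed in 1 of them: 1 member, Snap25, was downregulated in treated B6 mice with DESeq2, with edgeR's exact test, at an adjusted p under 0.05 and with all 15 libraries in 1 fit. Over the members' log2 FC, 718 values under alternatives kept their direction and side of the threshold, 4 passed it and 86 changed sign. GC correction moved the treated B6 level of Snap25 from 9.65 ± 0.540 to 11.7 CPM and that of Vip from 32.9 ± 6.01 to 39.6 CPM, both by more than 1 SD. With other control sets, untreated Irf1-/- mice against control set 1 were at -0.61 (Uchl1), -0.29 (Tubb3), -0.17 (Snap25), -0.18 (Ret) and -0.47 (Nos1), and against both sets at -0.33 (Uchl1), -0.083 (Tubb3), -0.071 (Ret) and -0.25 (Nos1). Treated B6 mice against set 2 were at 0.33 (Uchl1), 0.20 (Tubb3), 0.21 (Ret), 0.29 (Nos1) and 0.34 (Vip), and against both at 0.079 (Ret), 0.027 (Nos1) and 0.15 (Vip). The difference between the responses was -0.060 (Uchl1), -0.17 (Tubb3), -0.17 (Ret), -0.098 (Nos1) and -0.16 (Vip) with set 2, and -0.045 (Ret) with both. The average response was 0.28 (Uchl1), 0.099 (Tubb3), 0.11 (Ret) and 0.22 (Nos1) with set 2, and 0.11 (Uchl1), 0.048 (Ret) and 0.097 (Nos1) with both.

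With GC correction, Vip was at 0.31 in treated B6 mice and -0.098 in the difference, Tubb3 at -0.024 in treated Irf1-/- mice, and between treated genotypes Uchl1 was at 0.092, Tubb3 at 0.14 and Nos1 at 0.0078. With the replicate block and GC correction together the first 3 were at 0.31, -0.095 and -0.017, and between treated genotypes Uchl1 was at 0.076 and Tubb3 at 0.13. No steady pairing by replicate number was seen: deviations from group means of same-numbered libraries correlated at -0.14 to 0.25 over 12 pairs, 2 of them above 0.1. With 3 libraries per group, such values cannot show that the samples were unpaired. With the replicate block alone, Snap25 in treated B6 mice had an adjusted p of 0.0686 in edgeR's quasi-likelihood test, and Vip in untreated Irf1-/- mice was at 0.0020 (limma voom 0.0058). No member was called with the block.

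Leaving out each mouse in turn, the log2 FC that changed sign ran as follows. In untreated Irf1-/- mice they were -0.12 to 0.22 (Uchl1), -0.069 to 0.15 (Ret), -0.058 to 0.075 (Nos1) and -0.14 to 0.19 (Vip). In treated B6 mice they were -0.12 to 0.14 (Ret), -0.29 to 0.064 (Nos1) and -0.14 to 0.12 (Vip), and in treated Irf1-/- mice -0.11 to 0.13 (Tubb3), -0.038 to 0.21 (Snap25) and -0.069 to 0.099 (Ret). In the difference they were -0.10 to 0.16 (Ret), in the average response -0.11 to 0.093 (Uchl1), -0.052 to 0.075 (Ret) and -0.064 to 0.11 (Nos1), and between treated genotypes -0.20 to 0.11 (Uchl1), -0.11 to 0.067 (Tubb3) and -0.17 to 0.016 (Nos1). Snap25 stayed at -0.64 to -0.56 in treated B6 mice and at 0.39 to 0.63 between treated genotypes. The causes were not tested. The exact test was not run for the difference and the average response, which it cannot express, and the median r of member pairs was 0.45 to 0.47 under its alternatives. Depth set a floor on precision, since counting alone gives a coefficient of variation of 4.55 to 8.33% at the lowest count of each member.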

Other observations

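Outside the listed genes, the 6 genes in all tables with a mean of at least 5 CPM whose profile over the 15 libraries was most like the mean profile of the neuron genes were Creg1, Cbr3, Cbr1, Lpcat1, Gstp2 and Tsku, among 12241 candidates. Pearson's r was 0.88 for Creg1 (Spearman's rho 0.85), 0.88 for Cbr3, 0.88 for Cbr1, 0.87 for Lpcat1 (rho 0.92), 0.87 for Gstp2 and 0.86 for Tsku. None of these is known as a neuron gene, and Cbr1, Cbr3 and Gstp2 are enzymes that reduce or conjugate reactive compounds. Their mean levels were 22.6 CPM (Lpcat1) to 169 CPM (Gstp2). Without the 2 libraries farthest from the median of the neuron profile, r was 0.71 to 0.85 for these 6, and for deviations from the group means 0.63 to 0.81. They were selected as the highest of all candidates, and the libraries share their groups and tissue, so these values are a description. The highest listed neuronal gene, Kif1a, was at 0.85 on the same scale.

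The summed level of the 6 neuron genes was 105 ± 16.2 CPM (SD, n = 3) in control set 1, 79.1 ± 7.57 in control set 2, 92.1 ± 4.72 in treated B6, 82.4 ± 5.23 in untreated Irf1-/- and 90.1 ± 6.06 in treated Irf1-/- mice. Both treated groups thus lay between the control sets. Markers of interstitial cells of Cajal (Kit, Ano1 and Etv1), the pacemakers that sit beside the enteric neurons, were at a summed 505 ± 18.3 CPM in control set 1 and 421 ± 24.0 CPM in control set 2, and at 489 ± 31.3, 463 ± 19.9 and 507 ± 2.10 CPM in treated B6, untreated Irf1-/- and treated Irf1-/- mice. Markers of enteroendocrine cells, epithelial cells that share secretory genes with neurons, were at 237 to 348 CPM over all groups, which overlapped. Markers of PDGFRA+ interstitial cells were at 179 to 233 CPM, of colon epithelium at 8303 to 11019 CPM and of adipose tissue (Fabp4 alone, 1 of 5) at 15.7 to 30.3 CPM. Of 3 mesothelial markers only Krt19 was measured throughout (1190 to 1648 CPM), which is a keratin of the epithelium as well and stands in that list too, so mesothelium has no value of its own here. Of these lists, 2 genes were called in the average response, Car1 of the epithelium (log2 FC -0.80, adjusted p = 0.00465 in edgeR's quasi-likelihood test) and Tyrobp of leukocytes (0.60, adjusted p = 0.00747). After GC correction neither was called (Car1 -0.72, adjusted p = 0.0133, and Tyrobp 0.53, adjusted p = 0.0205, same test). Of the skeletal muscle markers, Ckm was called between treated genotypes (-0.91, adjusted p = 0.00280), also after GC correction (-0.81, adjusted p = 0.00789).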
